A study of Mus musculus with 617 samples.

Results

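The mouse embryonic stem (ES) cells described here were grown in 2i and LIF, and were taken as the cells that the labels give this state. They were 60 cells of a female and 51 cells of a male line, out of 617 single cells in the series. The labels give both as male CAST/EiJ crossed to female C57BL/6J. The same lines were sampled in 3 other states of the same table, which holds 447 cells: 68 female and 52 male ES cells kept in serum with LIF, epiblast stem cells cultured with Activin A and FGF2 (Epi, 79 and 63), and cells taken through embryoid bodies with retinoic acid and the smoothened agonist SAG to motor neurons, a route that per the labels also gives interneurons (39 and 35). Every cell was profiled by SMART-seq2, which copies full-length transcripts. Each state is taken as 1 culture of each of 2 lines, so sex and line cannot be told apart, and p-values measure the spread between these cultures. The labels do not name the inhibitors of 2i or give a passage number for the ES cells.

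The medium called 2i joins an inhibitor of MEK, the kinase that activates ERK, to an inhibitor of GSK3, the kinase that marks beta-catenin for destruction, and is used with the cytokine LIF, which acts through STAT3. Blocking MEK removes the FGF and ERK signal that drives ES cells toward a primed, post-implantation-like state, and stabilised beta-catenin relieves the repression of naive genes by TCF7L1 and switches on Wnt target genes. ES cells in 2i are known as a ground state, and ES cells in serum as a mixture of cells that move in and out of it.

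Values are FPKM (fragments scaled to the length of the exons and to the size of the library), and counts were not used here. The cells of each culture were averaged, since they share their source, which leaves n = 2 cultures a state. Cells in 2i had a median of 10400 (female) and 10393 (male) genes at 1 FPKM or more, against 9443.5 and 9645 in serum. Pairs of values below are for the female and then the male culture. The titles of the 2i cells number them in 2 runs, of 30 and 30 female and 22 and 29 male cells, and the labels do not say what a run is. Gm42418, a gene that overlaps ribosomal RNA, averaged 45089.5 FPKM in the lower and 1353 FPKM in the higher female run, 48839.9 and 1371 FPKM in the male runs, and from 23667 to 71285.1 FPKM in the runs of serum cells. Its part in the results was not tested, but spread was measured within runs, and each count of levels was repeated with the lower or higher run alone. The 2 Epi cultures stood apart from each other: Zfp42, a naive marker, was at 72.5 (female) and 0.0687 FPKM (male). The motor neuron cultures held Isl1 at 129.1 and 190.3 FPKM but also the endoderm factor Sox17 at 89.5 and 345.9 FPKM.

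The 5 genes taken to mark ES cells in 2i were each higher in both 2i cultures than in both serum cultures. Tfcp2l1, a transcription factor downstream of LIF, averaged 70.7 and 78.7 FPKM in 2i and 5.33 and 5.53 FPKM in serum. Tbx3, a repressor of differentiation, averaged 23.7 and 27.3 FPKM in 2i and 2.84 and 2.52 FPKM in serum. Klf4, a factor that STAT3 induces, averaged 32.4 and 31.6 FPKM in 2i and 8.74 and 8.95 FPKM in serum. Nanog, the homeobox factor that sustains self-renewal, averaged 278.4 and 293.1 FPKM in 2i and 93.5 and 100.5 FPKM in serum. In these 4 genes the female and male cultures of a state lay close together. Prdm14, which represses FGF signalling and de novo methylation, averaged 27.2 and 22.2 FPKM in 2i and 8 and 5.21 FPKM in serum. In each of the 5 genes the states did not overlap. Per cell, all 5 were at 1 FPKM or more in each of the 60 female and 51 male cells in 2i, which for the female cells gives an exact Clopper-Pearson 95% lower limit of 94.04% (counting error only). In serum the share ran from 32.4% (female) and 28.8% (male) for Tbx3 to 77.9% and 92.3% for Nanog.

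Of a list of 16 naive pluripotency genes, 12 lay higher in both 2i cultures than in both serum cultures, 1 lay lower (Dppa3) and 3 overlapped, against 26.2% higher and 27.1% lower of the 15504 genes tested. The list's median log2 change was 1.02, against 0 over all genes. The list includes the genes taken above to mark ES cells in 2i, so its counts are not independent of that choice. Esrrb, an orphan nuclear receptor of the naive network, averaged 49.8 and 40.6 FPKM in 2i and 18.01 and 18.2 FPKM in serum. Klf2, a Kruppel-like factor of the same network, averaged 62.5 and 41.6 FPKM in 2i and 23.4 and 17.1 FPKM in serum. Both genes had no overlap between the media. The orphan receptor gene Nr0b1 averaged 106.96 and 83.7 FPKM in 2i and 72.4 and 91.1 FPKM in serum, so the cultures overlapped, as they did for Gbx2 and Fgf4. Dppa3, a maternal factor that protects from methylation, averaged 79.4 and 79.6 FPKM in 2i and 106.3 and 88.2 FPKM in serum. The naive list thus split into 12 genes with higher means in 2i and 4 genes, Nr0b1, Gbx2, Fgf4 and Dppa3, without.

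The test of levels was a limma fit over the 8 cultures on log2(mean FPKM + 1), and calls needed both a log2 change of at least 1 and a p, adjusted by Benjamini-Hochberg, under 0.05. Against serum it called 2 genes higher (0.0129% of 15504) and 1 lower (0.00645%), while 1549 had an unadjusted p under 0.05. It called 0 of the naive list. These counts were 0 and 0 without the female 2i, male 2i, male serum or male motor neuron culture, 1 and 0 without the female serum culture, 11 and 3 without the female motor neuron culture, and 36 and 12 or 37 and 14 without the female or male Epi culture. A fit of only the 4 ES cell cultures (13547 genes) called 1.87% of genes higher and 1.15% lower, and with the line as a replicate block the fit of 8 cultures called 0 and 0. In the fit of 4 cultures, 5 of the 16 naive genes were called higher and 0 lower: Tfcp2l1, Tbx3, Klf4, Nanog and Esrrb. All of these but Esrrb are among the genes taken to mark this state, so their calls are not independent support for it. In the fit of 8, the log2 change was 3.56 (SE 0.74, adjusted p = 0.163) for Tfcp2l1, 2.85 (SE 0.44, adjusted p = 0.0882) for Tbx3 and 1.55 (SE 1.05, adjusted p = 0.758) for Nanog. Below, a gene is said to pass in the fit of the ES cultures where that smaller fit called it. The plot of the changes by list shows these calls beside the genes that were not called.

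**Figure D1:**
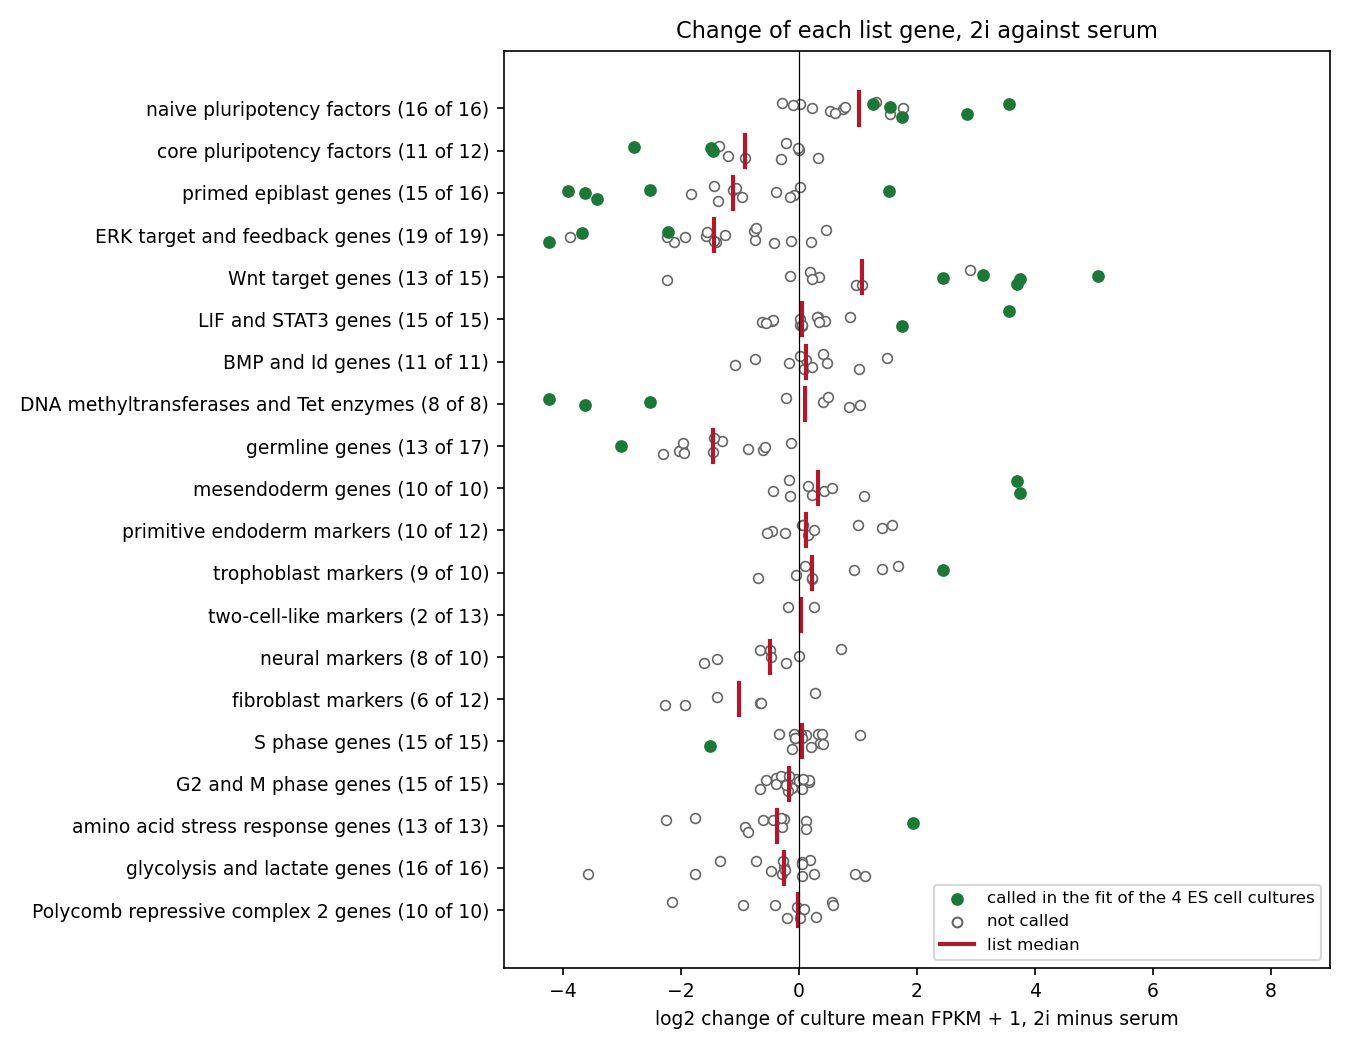
Log2 change of culture mean FPKM + 1, 2i minus serum (x axis), for each tested gene of 20 gene lists (y axis, with the number tested of the number listed). Filled points were called in the fit of the 4 ES cell cultures, open points were not, and bars are list medians. Naive and Wnt target genes lie mostly to the right of 0, and ERK target, germline, core and primed genes mostly to the left.

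Single cells in 2i differed less in the naive genes than cells in serum did. Of the 16 genes, 14 were at 1 FPKM or more in every cell in 2i, the exceptions being Nr5a2 and Gbx2. Dppa5a was the 1 gene of the 16 found in all 120 cells in serum, and 0 of the 16 were found in all Epi or all motor neuron cells. At 5 FPKM the number in 2i was 13. Nanog ran from 168.7 over a median of 263.6 to 485 FPKM in female and from 119.005 over 287.3 to 496 FPKM in male 2i cells. In serum it ran from 0 over 37.4 to 644 FPKM and from 0 over 64.3 to 838 FPKM. The highest Nanog cells were thus found in serum, although the mean there was lower. Zfp42, a zinc finger gene also called Rex1, ran from 57.4 to 187.2 and from 55.1 to 226.6 FPKM in 2i against 0 to 367.6 and 0.987 to 347.1 FPKM in serum. Values listed at 0 can be failed detection, since the depth per cell is unknown.

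**Figure D2:**
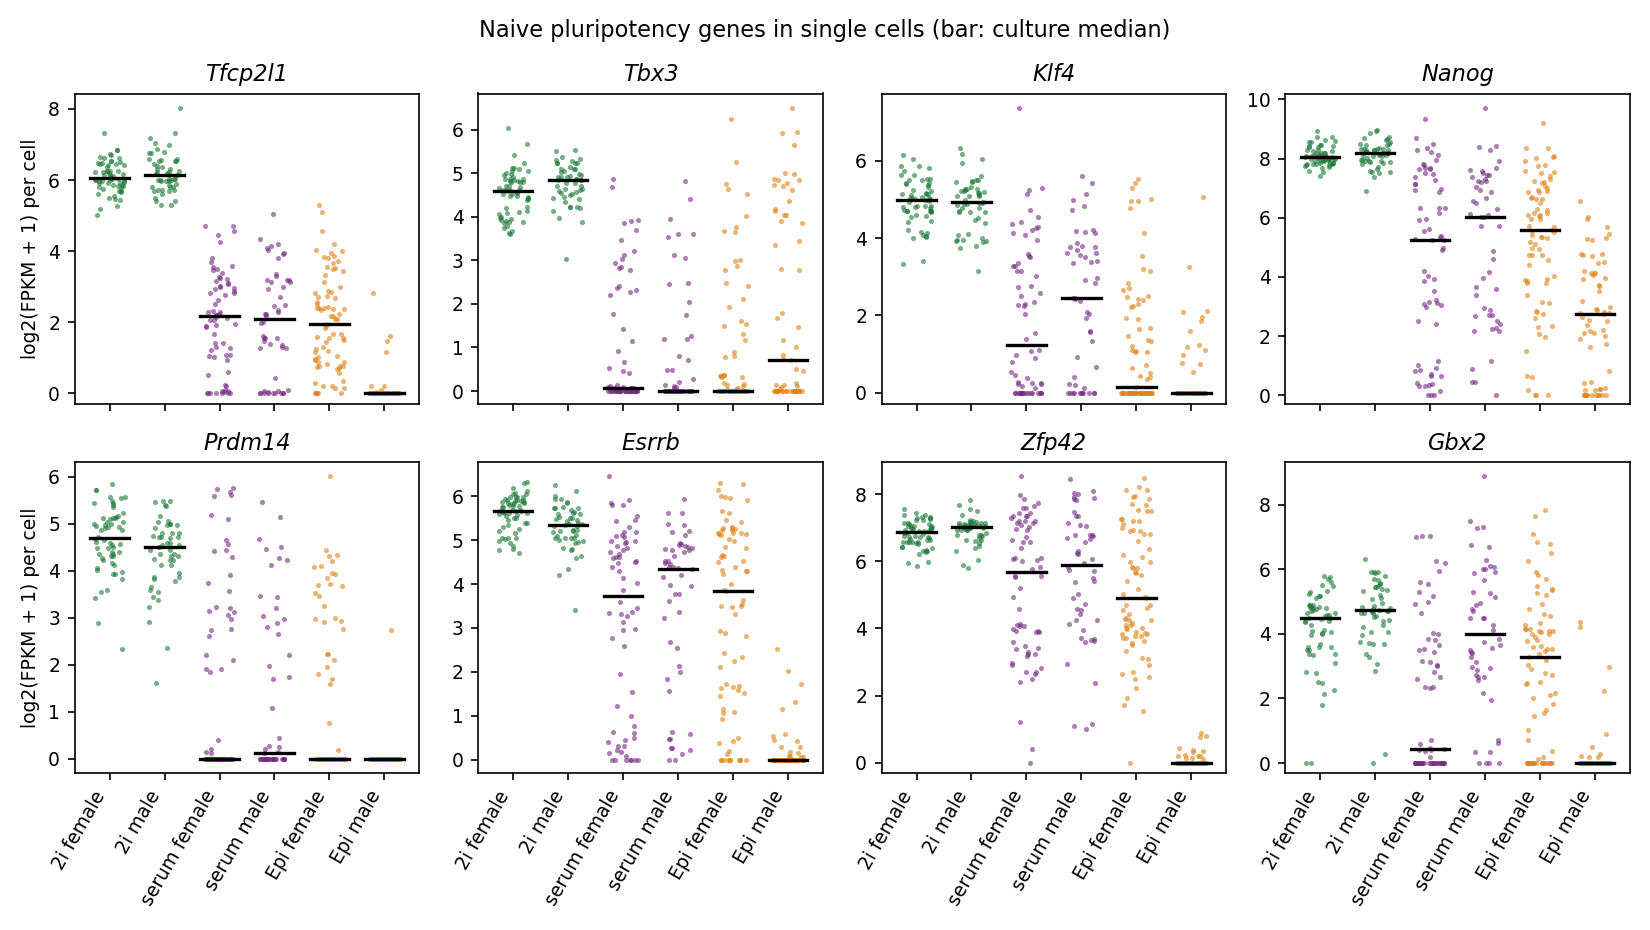
Log2(FPKM + 1) of 8 naive pluripotency genes in each cell (points) of the 2i, serum and Epi cultures of both lines (x axis), with culture medians as bars. The 2i cells form compact bands in all 8 genes, with a few cells at 0 in Gbx2, while serum cells range from 0 to levels as high as or higher than those in 2i for Klf4, Nanog, Esrrb, Zfp42 and Gbx2.

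The spread between cells was measured as the squared coefficient of variation (CV²) within runs, relative to the running median of genes of like mean in the same culture, and tested by limma over the cultures for genes of at least 5 FPKM in the cultures compared. Against serum, 18 of 7000 genes (0.257%) were less variable in 2i and 3 (0.0429%) more variable at an adjusted p under 0.05. Of the 18, 4 were of the naive list: Zfp42, Nr0b1, Nanog and Gbx2. The CV² of Zfp42 was 0.0641 and 0.0672 in the female and male 2i cultures and 1.05 and 0.947 in serum, a difference in excess spread of -2.59 on the log2 scale (SE 0.39, adjusted p = 0.0388). For Nanog the CV² was 0.0532 and 0.0681 in 2i and 1.8 and 1.44 in serum (difference -2.81, SE 0.49, adjusted p = 0.0388). For Nr0b1 it was 0.165 and 0.132 against 2.5 and 1.4, and for Gbx2 0.403 and 0.299 against 4.12 and 2.79. Nr0b1 and Gbx2 thus differed in spread while their means overlapped. Of 14 naive genes tested, 12 had a lower excess in both 2i cultures than in both serum cultures, against 18.3% of all 7000. The list's median difference was -1.70, against 0.06 over all genes. Tfcp2l1 and Dppa3 were the other two: the CV² of Dppa3 was 0.506 and 0.798 in 2i and 1.55 and 0.8 in serum, and that of Tfcp2l1 was 0.0594 and 0.243 and 1.28 and 1.31 at very different means.

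Outside the naive list, the genes called less variable in 2i included Mylpf, a myosin light chain gene, with a CV² of 0.105 and 0.05 in 2i and 2.01 and 1.64 in serum. Of the glycolysis list 2 genes were called, the aldolase gene Aldoa (0.0184 and 0.0225 against 0.277 and 0.318) and the glucose transporter gene Slc2a1 (0.146 and 0.186 against 1.1 and 1.11). The others on the lists were Id1, a BMP target (0.486 and 0.511 against 2.54 and 2.93), the transcription factor gene Tfap2c (0.317 and 0.436 against 3.28 and 2.26) and the de novo methyltransferase gene Dnmt3b (0.153 and 0.337 against 0.73 and 0.387). For Dnmt3b the male CV² was similar in both media while its means were lower in 2i, so its call rests largely on the comparison at like mean. The 3 genes called more variable in 2i, Gm27694, Mir682 and Snord99, have under 200 bases of exon, a length at which FPKM is unstable. The count of 18 depended on single cultures: leaving out either 2i or either motor neuron culture left 0 less variable genes, leaving out the female or male serum culture left 3 or 1, and leaving out either Epi culture gave 60. With the line as a replicate block 4 were called, with runs not kept apart 0, and with only the 4 ES cultures 29 and with only cells of at least 9000 genes 19, both alternatives added after seeing the data.

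**Figure D3:**
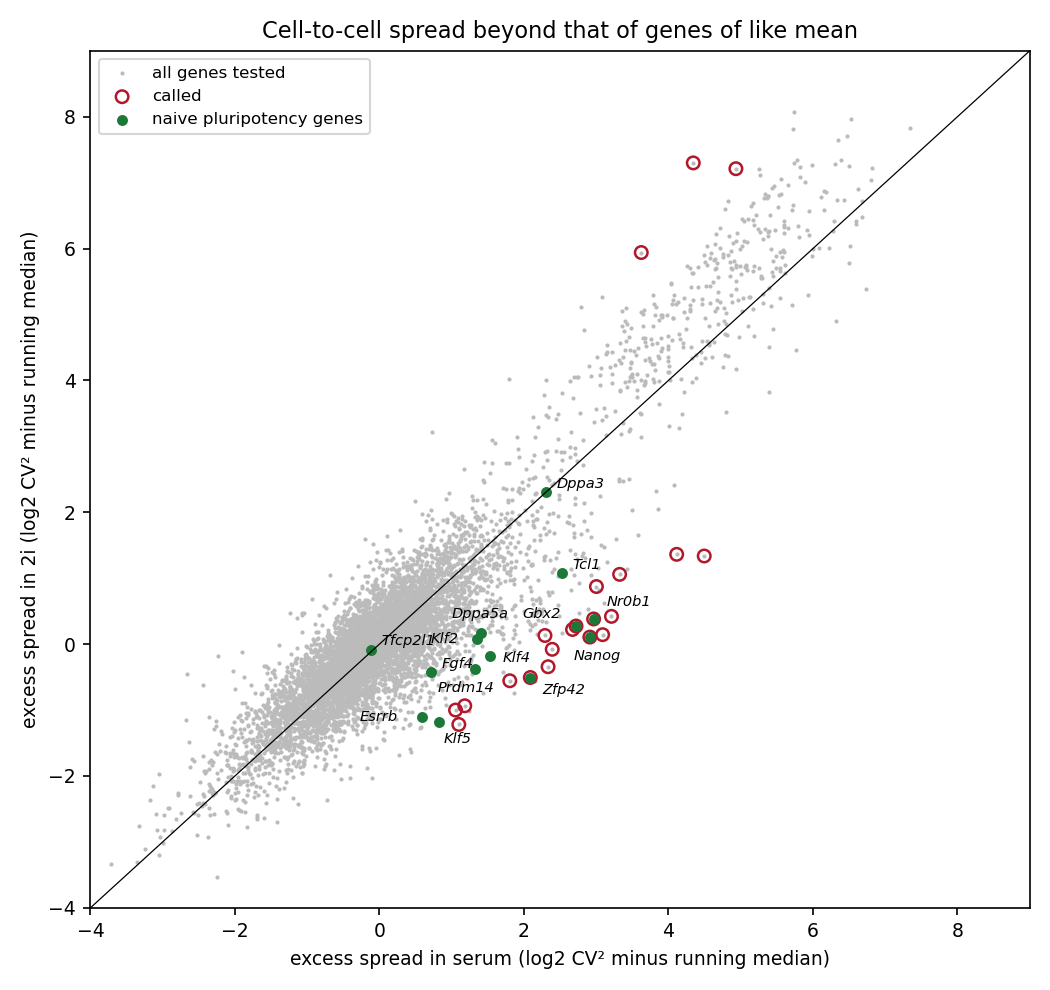
Excess spread of each of 7000 genes in serum (x axis) and in 2i (y axis), as the mean over the 2 cultures of log2 CV² minus the running median for genes of like mean. Naive genes are filled, called genes are ringed, and the line marks equality. Most naive genes lie below the line, Dppa3 and Tfcp2l1 lie on or near it, and the 3 rings above the line are short RNA genes.

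Naive genes varied together across cells in serum and little in 2i. Over 120 pairs of the 16 genes, with each run centred on its own mean, the median Pearson r of log2(FPKM + 1) across cells was 0.04 in 2i (60 female and 51 male cells) and 0.40 in serum (68 and 52). It was 0.04 and 0.03 in the female and male 2i cells and 0.42 and 0.35 in the female and male serum cells. The r exceeded 0.3 in 3 pairs in 2i and in 84 in serum. Cells of a culture share their preparation, and depth can move with all genes, so the number of genes detected was set beside it: its median r with the 16 genes was 0.07 in 2i and -0.18 in serum. In cells with at least 9000 genes, a limit chosen after seeing the data, the medians were 0.03 in 2i (60 female and 48 male cells) and 0.44 in serum (55 and 45). Low correlation was not found in 2i alone, as male Epi cells, in which most of these genes are near 0, had a median of -0.04. Motor neuron cells had a median of 0.06 and female Epi cells of 0.37. Most naive genes also varied little between cells in 2i, and the part of this small spread in the low r was not tested.

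**Figure D4:**
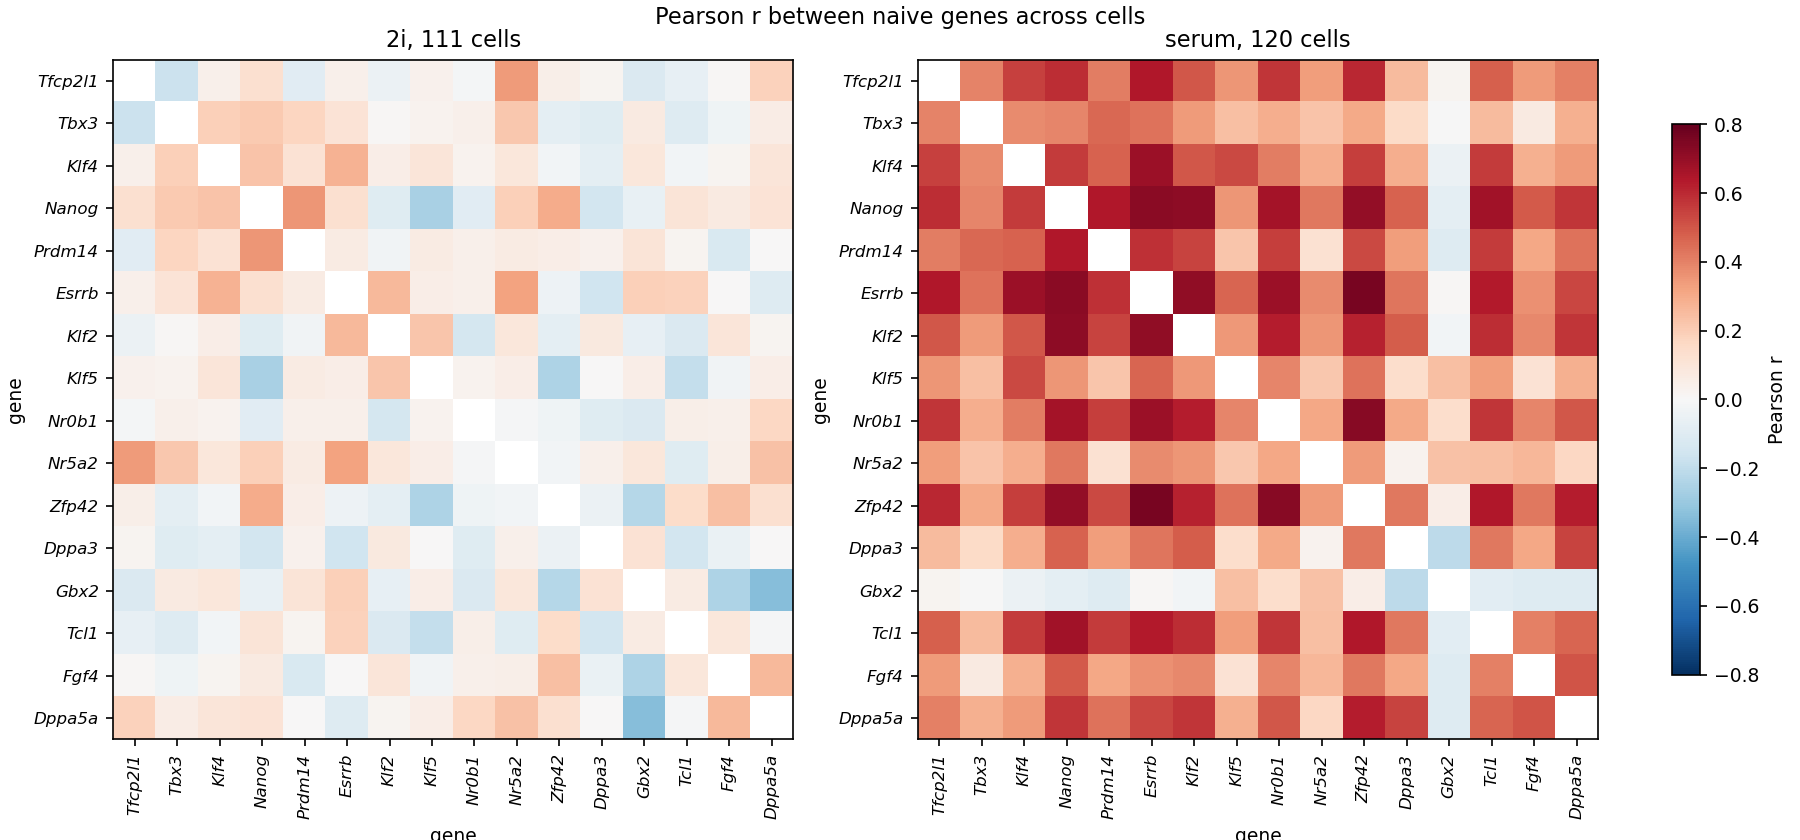
Pearson r between the 16 naive genes across cells in 2i (left) and in serum (right), on log2(FPKM + 1) centred within each culture and run (colour scale from -0.8 to 0.8). In 2i the colours stay pale, with a median r of 0.04, and in serum most pairs are positive, with a median of 0.40, except those with Gbx2.

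Over all genes, cells in 2i were also more alike. The median Pearson r between pairs of cells of 1 run was 0.841 in the female and 0.8296 in the male 2i culture, 0.771 and 0.786 in serum, 0.786 and 0.768 in Epi and 0.616 and 0.652 in motor neuron. Both 2i cultures lay above the other 6. The exact two-sided permutation test gave p = 0.333 against serum, the smallest that 2 against 2 cultures allow, and p = 0.0714 against the 6 others, where the smallest is 0.0357. The median CV² over 6256 genes measured in all cultures was 0.207 and 0.235 in 2i, 0.457 and 0.374 in serum and 0.371 and 0.417 in Epi. The number of genes detected per cell was higher in 2i than in serum, and its part in these values was not tested.

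ERK target genes were lower in 2i as a list. Of 19 ERK target and feedback genes, 15 lay lower in both 2i cultures than in both serum cultures, 1 lay higher (Spry2) and 3 overlapped, against 27.1% lower and 26.2% higher of all genes tested, and the median log2 change was -1.44. Dusp6, the phosphatase that ERK induces against itself, averaged 1.05 and 1.84 FPKM in 2i and 38.8 and 50.3 FPKM in serum. The log2 change was -4.23 (SE 0.50, adjusted p = 0.064). It was at 1 FPKM or more in 25% and 45.1% of female and male cells in 2i against 91.2% and 94.2% in serum. Etv4, an ETS factor downstream of FGF, averaged 0.795 and 2.09 FPKM in 2i and 26.4 and 31.8 FPKM in serum (log2 change -3.67, SE 0.32, adjusted p = 0.0529). Dusp4, another phosphatase of this family, averaged 0.136 and 0.307 FPKM in 2i and 2.84 and 2.38 FPKM in serum. The early response gene Egr1 averaged 0.049 and 0.316 FPKM in 2i and 6.22 and 40.3 FPKM in serum. Dusp6, Etv4 and Junb passed as lower in the fit of the ES cultures. The list was not uniform. Spry2, an inhibitor of receptor tyrosine kinase signalling, averaged 88.5 and 93.7 FPKM in 2i and 75.9 and 82.1 FPKM in serum. Etv5, a paralog of Etv4, averaged 31.5 and 29.4 FPKM in 2i and 25.1 and 44.9 FPKM in serum. The cyclin gene Ccnd1 averaged 107.1 and 121.7 FPKM in 2i and 54.01 and 127.04 FPKM in serum, so Etv5 and Ccnd1 overlapped between the media.

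Wnt target genes were higher in 2i as a list. Of the 15 genes of the Wnt list, 11 lay higher in both 2i cultures than in both serum cultures, 1 lay lower (Ccnd2) and 3 overlapped, against 26.2% higher and 27.1% lower of all genes tested. The filter on low values was passed by 13, with a median log2 change of 1.08. Axin2, the feedback inhibitor of the pathway, averaged 16.7 and 16.3 FPKM in 2i and 0.56 and 1.59 FPKM in serum. Sp5, a zinc finger factor that beta-catenin induces directly, averaged 36.4 and 44.5 FPKM in 2i and 0.00362 and 0.483 FPKM in serum. Cdx1, a caudal homeobox gene, averaged 20.03 and 30.96 FPKM in 2i and 0.806 and 1.06 FPKM in serum. In these 3 genes every serum culture was below 2 FPKM. Cdx2, its relative and a trophoblast factor, averaged 6.82 and 4.12 FPKM in 2i and 0.171 and 0.159 FPKM in serum. T (brachyury), a T-box gene of the primitive streak, averaged 20.2 and 23.9 FPKM in 2i and 0.728 and 0.816 FPKM in serum. Each of Axin2, Sp5, Cdx1 and T was at 1 FPKM or more in every cell in 2i, while Sp5 was so in 0 of 68 female and 3 of 52 male cells in serum. Axin2, Sp5, Cdx1, Cdx2 and T passed in the fit of the ES cultures, and in the fit of 8 the log2 change was 5.08 (SE 1.37, adjusted p = 0.262) for Sp5 and 3.75 (SE 0.50, adjusted p = 0.0778) for Cdx1. Other Wnt targets did not show differences of that size. Lef1, a partner of beta-catenin, averaged 16.9 and 12.7 FPKM in 2i and 15.1 and 17.97 FPKM in serum, and the cultures overlapped. Tcf7, another partner, averaged 11.6 and 10.5 FPKM in 2i and 8.08 and 8.84 FPKM in serum. The stem cell receptor gene Lgr5 was under 1 FPKM in all 4 ES cultures.

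The sequence before the start is shown for 3 genes of the Wnt list. They were under 2 FPKM in both serum cultures and at 1 FPKM or more in every cell in 2i. Each is the 250 bases before the RefSeq start in GRCm38.p6, on the plus strand, and the capitals mark CTTTGA or its reverse complement TCAAAG, the core that TCF and LEF factors bind. The windows are chr2:70474673-70474922 for Sp5, chr11:108920099-108920348 for Axin2 and chr17:8434173-8434422 for T. Cdx1, of the same list, also met this rule but had no match in the RefSeq table.
Sp5: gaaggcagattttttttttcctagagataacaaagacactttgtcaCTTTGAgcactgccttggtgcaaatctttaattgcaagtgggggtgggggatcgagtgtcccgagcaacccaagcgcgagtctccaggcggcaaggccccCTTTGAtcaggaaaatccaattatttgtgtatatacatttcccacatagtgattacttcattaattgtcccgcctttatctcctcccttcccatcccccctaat
Axin2: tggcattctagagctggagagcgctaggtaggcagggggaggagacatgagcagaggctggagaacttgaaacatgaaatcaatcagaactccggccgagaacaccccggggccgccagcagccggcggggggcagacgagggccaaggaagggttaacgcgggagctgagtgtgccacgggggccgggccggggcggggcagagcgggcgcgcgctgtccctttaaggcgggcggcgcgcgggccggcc
T: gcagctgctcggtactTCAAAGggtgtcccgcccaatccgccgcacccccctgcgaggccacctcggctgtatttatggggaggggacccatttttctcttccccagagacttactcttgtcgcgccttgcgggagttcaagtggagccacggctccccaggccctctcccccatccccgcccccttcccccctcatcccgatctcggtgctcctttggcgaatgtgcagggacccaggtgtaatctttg
Sp5 holds 2 matches, T holds 1, at the far end of its window from the start, and Axin2 holds 0. Of all 32851 RefSeq promoter windows of that length, 13.8% hold at least 1 match and 1.37% hold at least 2. RefSeq windows were matched for 10 of the 15 listed genes (15 starts), of which 4 starts hold a match. A match is a description of letters and was not tested as a site.

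**Figure D5:**
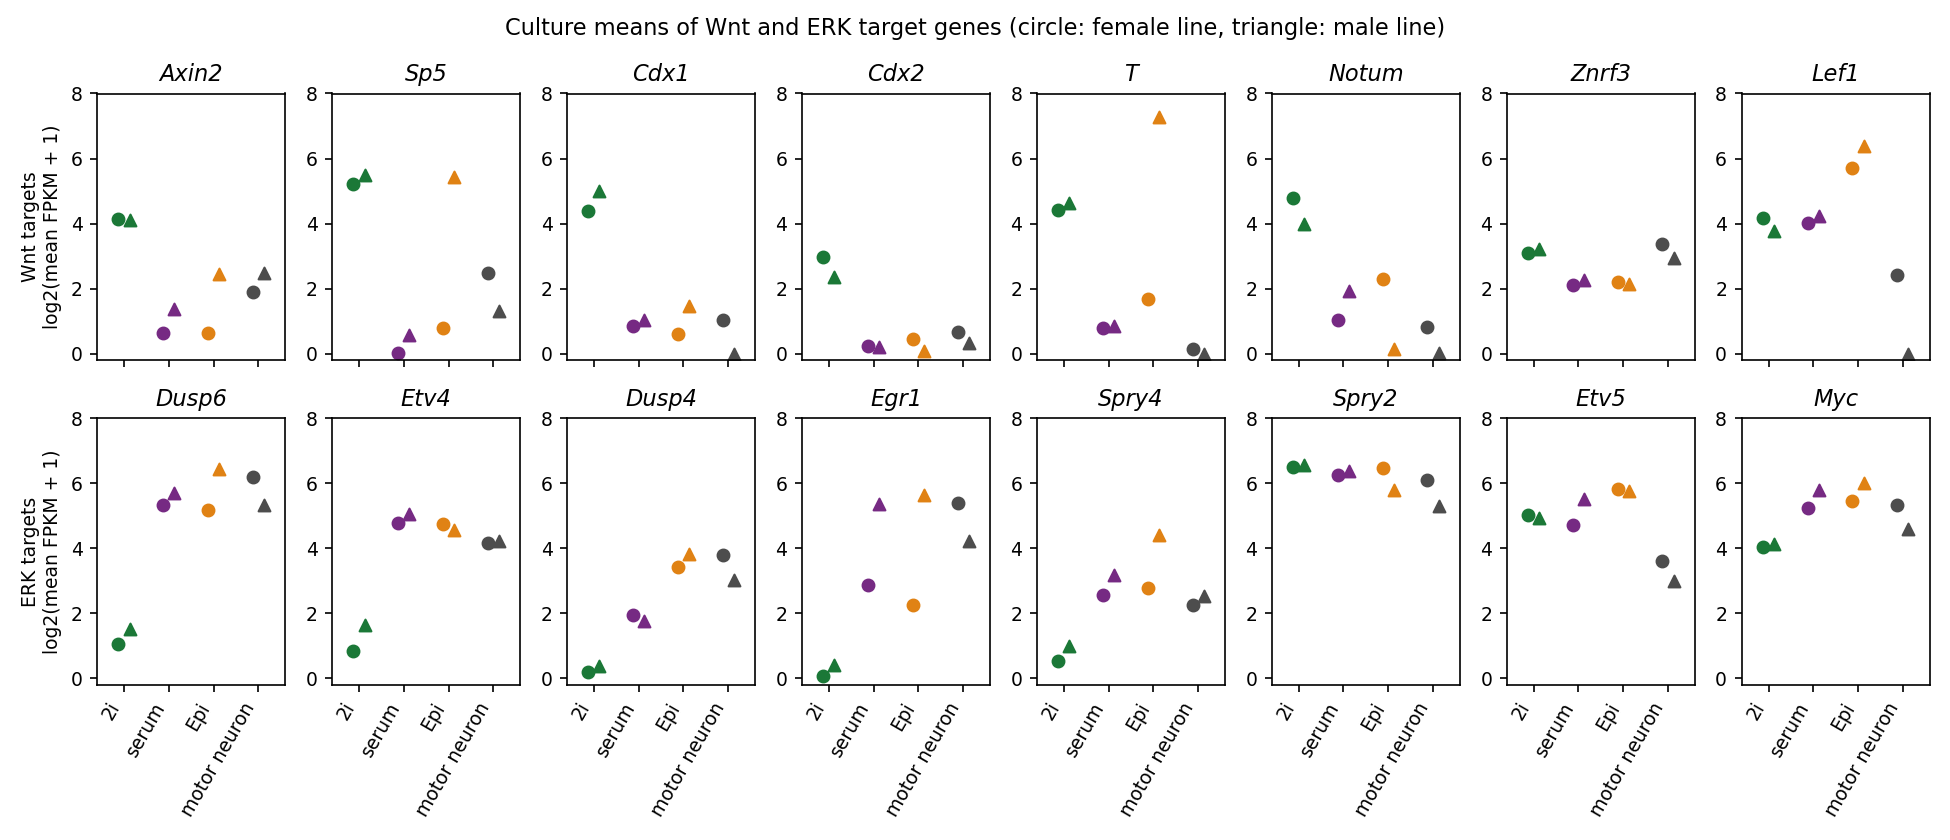
Log2(mean FPKM + 1) of 8 Wnt targets (upper row) and 8 ERK targets (lower row) in the 8 cultures, by state (x axis) and line (circle female, triangle male). Axin2, Sp5, Cdx1, Cdx2 and T are high in both 2i cultures and low in serum, Dusp6, Etv4, Dusp4 and Egr1 are low in both 2i cultures, and Spry2, Etv5 and Lef1 are at similar levels in 2i and serum.

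LIF and BMP genes differed little between the media as lists. LIF is present in both. Of 15 LIF and STAT3 genes, 6 lay higher in both 2i cultures, 4 lay lower and 5 overlapped (26.2% and 27.1% of all genes lay higher and lower), with a median log2 change of 0.06. The 2 that passed in the fit of the ES cultures, Klf4 and Tfcp2l1, are also on the naive list. The receptor gene Lifr averaged 3.34 and 3.1 FPKM in 2i and 2.12 and 2.63 FPKM in serum. The feedback inhibitor gene Socs3 averaged 14.5 and 22.1 FPKM in 2i and 11.8 and 26.6 FPKM in serum. Stat3 itself averaged 29.1 and 42.9 FPKM in 2i and 14.2 and 24.8 FPKM in serum, so it did not overlap, while Socs3 did. Of 11 BMP and Id genes, 5 lay higher, 2 lower and 4 overlapped. Id1, a BMP target, averaged 24.9 and 40.7 FPKM in 2i and 75.9 and 62.04 FPKM in serum. Id3 averaged 33.8 and 76.1 FPKM in 2i and 30.4 and 47.4 FPKM in serum, so its cultures overlapped.

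Several genes of the core pluripotency list were lower in 2i, while Oct4 was not. Of 12 genes, 1 lay higher in both 2i cultures, 7 lay lower and 4 overlapped (26.2% and 27.1% of all genes lay higher and lower), and 11 were tested, with a median log2 change of -0.91. Pou5f1 (Oct4) averaged 671 and 742 FPKM in 2i and 493 and 645 FPKM in serum. Utf1, a chromatin factor of ES cells, averaged 79.8 and 103.9 FPKM in 2i and 567 and 718 FPKM in serum. The linked paralogs Dppa2 and Dppa4 bind bivalent promoters. Dppa2 averaged 9.82 and 11.9 FPKM in 2i and 30.98 and 31.6 FPKM in serum. Dppa4 averaged 21.2 and 24.6 FPKM in 2i and 65.2 and 67.2 FPKM in serum. Utf1, Dppa2 and Dppa4 passed as lower in the fit of the ES cultures. Of 16 primed epiblast genes, 12 lay lower in both 2i cultures, 1 higher and 3 overlapped, against the same shares of all genes. Otx2, a homeobox factor of the early primed state, averaged 0.814 and 0.413 FPKM in 2i and 22.2 and 23.7 FPKM in serum and was at 1 FPKM or more in 15% and 7.84% of cells in 2i against 57.4% and 51.9% in serum. Cldn6, an epithelial claudin gene, fell by 3.41 (SE 0.25, adjusted p = 0.0284; 0.0173 to 0.166 over 19 alternatives), with 3 and 4.5 FPKM in 2i and 49.8 and 48.2 FPKM in serum. The call was lost when any 1 of the 4 ES cultures or the male motor neuron culture was left out, with a pseudocount of 0.1, from means of log2 values, in the lower run and with the line as a replicate block (adjusted p = 0.0763). Lefty2, an inhibitor of Nodal, had the opposite direction, with 112.2 and 111.3 FPKM in 2i and 33.4 and 43.5 FPKM in serum, and passed as higher in the fit of the ES cultures. Its neighbour and paralog Lefty1 averaged 18.8 and 34.5 FPKM in 2i and 71.4 and 70.1 FPKM in serum.

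The genes of de novo DNA methylation were lower in 2i than in serum. Dnmt3a averaged 16.1 and 14.96 FPKM in 2i and 157.2 and 260.1 FPKM in serum. Dnmt3b averaged 14.7 and 9.79 FPKM in 2i and 62.8 and 87.5 FPKM in serum. Dnmt3l, their cofactor, averaged 5.89 and 8.58 FPKM in 2i and 195.5 and 118.5 FPKM in serum. It was at 218.6 and 0.127 FPKM in Epi and at 56.7 and 3.79 FPKM in motor neuron, so it overlapped between 2i and each of these states. In these 3 genes the 2i and serum cultures did not overlap, and all 3 passed in the fit of the ES cultures. In the fit of 8, the log2 change was -3.62 (SE 0.72, adjusted p = 0.151) for Dnmt3a, -2.53 (SE 0.50, adjusted p = 0.151) for Dnmt3b and -4.24 (SE 2.37, adjusted p = 0.688) for Dnmt3l. The maintenance methyltransferase gene Dnmt1 averaged 33.2 and 34.4 FPKM in 2i and 20.8 and 30.3 FPKM in serum. Uhrf1, which brings that enzyme to replicated DNA, averaged 92.8 and 104.6 FPKM in 2i and 38.3 and 58.4 FPKM in serum. Both means were thus above serum in each line. The oxidase gene Tet1 averaged 34.4 and 29.6 FPKM in 2i and 35.03 and 39.5 FPKM in serum. Tet2, of the same family, averaged 7.11 and 10.7 FPKM in 2i and 3.91 and 4.91 FPKM in serum. Methylation itself was not measured.

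Germline genes, which DNA methylation silences in somatic cells, were not higher in 2i. Of 17 such genes, 0 lay higher in both 2i cultures than in both serum cultures, 11 lay lower and 6 overlapped, against 26.2% higher and 27.1% lower of all genes tested. Of the 17, 13 were tested, with a median log2 change of -1.46. Mael, of the piRNA pathway, averaged 0.721 and 1.2 FPKM in 2i and 15.05 and 14.5 FPKM in serum and passed as lower in the fit of the ES cultures. Sycp3, of the synaptonemal complex, averaged 1.69 and 4.45 FPKM in 2i and 17.3 and 18.4 FPKM in serum. Dazl, an RNA-binding germ cell gene, overlapped, with 8.67 and 12.6 FPKM in 2i and 11.9 and 11.3 FPKM in serum. Stra8, the retinoic acid response gene of meiotic entry, was not on the list and had the largest log2 difference of the genes lower in both 2i cultures that the naming rule covers (-5.02, SE 1.98, adjusted p = 0.463), with 0.183 and 3.97 FPKM in 2i and 52.6 and 115.2 FPKM in serum.

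Of 13 amino acid response genes 9 lay lower in both 2i cultures, 2 higher (Asns and Shmt2) and 2 overlapped (Ddit3 and Psat1), against 27.1% lower and 26.2% higher of all genes tested. Asns, asparagine synthetase, averaged 1013 and 1049 FPKM in 2i and 293.7 and 248.3 FPKM in serum (log2 change 1.93, SE 0.39, adjusted p = 0.156) and passed as higher in the fit of the ES cultures. Chac1, a glutathione-degrading enzyme gene, averaged 11.5 and 6.43 FPKM in 2i and 30.7 and 32.6 FPKM in serum. Among 16 glycolysis genes 2 lay higher, 5 lower and 9 overlapped. The lactate exporter gene Slc16a3 averaged 0.918 and 1.7 FPKM in 2i and 10.8 and 60.8 FPKM in serum. Pfkl, a phosphofructokinase gene, averaged 14.5 and 14.1 FPKM in 2i and 34.2 and 75.1 FPKM in serum. Gapdh averaged 180.3 and 282.3 FPKM in 2i and 187.6 and 250.8 FPKM in serum and overlapped. Of 15 S phase genes 5 lay higher, 2 lower and 8 overlapped, and of 15 genes of G2 and M phase 0, 5 and 10, with median log2 changes of 0.06 and -0.16. The cyclin E gene Ccne1 stood out in the S phase list, with 87.7 and 83.1 FPKM in 2i and 205.6 and 291.9 FPKM in serum, and passed as lower in the fit of the ES cultures. Of 10 Polycomb repressive complex 2 genes, 1 lay higher, 3 lower and 6 overlapped. The catalytic subunit gene Ezh2 averaged 42.9 and 41.7 FPKM in 2i and 41.1 and 76.2 FPKM in serum. The accessory subunit gene Phf19 averaged 0.346 and 0.461 FPKM in 2i and 8.08 and 3.29 FPKM in serum.

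The genes with the largest rises from serum to 2i were at 1 FPKM or more in nearly every cell in 2i. Crxos, a homeobox gene that lies opposite Crx and whose reads a library without strand cannot tell from those of Crx, rose by 5.63 (SE 0.31, adjusted p = 0.0149; 0.00119 to 0.142 over 19 alternatives), with 62.1 and 76.99 FPKM in 2i and 0.593 and 0.258 FPKM in serum. Srarp rose by 4.89 (SE 0.34, adjusted p = 0.0284; 0.00133 to 0.153), with 32.4 and 48.9 FPKM in 2i and 0.302 and 0.45 FPKM in serum. Both calls were lost when any 1 of the 4 ES cultures or the male motor neuron culture was left out. They were also lost with a pseudocount of 0.1 and with the line as a replicate block (adjusted p = 0.0763 for both in limma). The call of Srarp was lost as well at a filter of 5 FPKM and in the lower run. Both genes averaged under 1 FPKM in every culture outside 2i, so they passed the filter through 2i alone. The SE of each was thus estimated mostly from cultures near 0. Trpm1, a cation channel gene of the retina and of melanocytes, averaged 639 and 525 FPKM in 2i and 2.9 and 4.67 FPKM in serum, the largest log2 difference of the eligible genes at 6.95 (SE 1.16, adjusted p = 0.103). It was at 1 FPKM or more in every cell in 2i and in 5 of 68 female and 7 of 52 male cells in serum, where single cells reached 155.5 and 181.5 FPKM. Tnni1, a troponin gene, averaged 102.8 and 92.1 FPKM in 2i and 0.964 and 0.34 FPKM in serum. Pglyrp1, a peptidoglycan recognition protein gene, averaged 118.3 and 44.5 FPKM in 2i and 0.814 and 1.71 FPKM in serum. Trpm1, Tnni1, Crxos, Sp5 and Srarp were at 1 FPKM or more in every cell in 2i, and Pglyrp1 in all female and 48 of 51 male cells. After Stra8, the largest differences toward lower values in 2i were in Myl9, Tagln, Car4 and Dnmt3l. Myl9, a myosin light chain gene of smooth muscle, averaged 0.131 and 0.691 FPKM in 2i and 57.3 and 16.9 FPKM in serum. Tagln, another smooth muscle gene, averaged 0.258 and 1.5 FPKM in 2i and 103.3 and 11.8 FPKM in serum. Car4, a carbonic anhydrase gene, averaged 0.371 and 1.37 FPKM in 2i and 64.5 and 19.7 FPKM in serum, so in all 3 the serum cultures differed from each other and both lay above 2i.

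Against the Epi state the fit of 8 cultures called 58 genes higher in 2i (0.374%) and 45 lower (0.29%), and 2362 had an unadjusted p under 0.05. The counts were 372 and 396 without the female Epi culture, 33 and 87 without the male one, 2 and 0 without either serum culture and 0 and 0 without either 2i culture. With each cell rescaled to the same sum they were 65 and 85, and the median log2 change over all genes moved from -0.13 to -0.30. Of the naive list 12 of 16 lay higher in both 2i cultures and 0 lower, against 18.4% and 33.8% of all genes, and 0 were called. Nanog was at 84.5 and 12.9 FPKM in the female and male Epi cultures and Tfcp2l1 at 5.29 and 0.185 FPKM. The called genes with the largest rise from Epi to 2i were Crxos, Srarp, Pglyrp1, Xaf1 and Pgc. Xaf1, an apoptosis factor gene, averaged 59.9 and 62.9 FPKM in 2i and 1.86 and 0.0276 FPKM in Epi (log2 change 5.19, SE 0.56, adjusted p = 0.0311), and Pgc, the gene of a pepsinogen, averaged 56.6 and 44.2 FPKM in 2i and 1.3 and 0.0157 FPKM in Epi (log2 change 5.06, SE 0.46, adjusted p = 0.026). Crxos averaged 0.209 and 0 FPKM in Epi, Srarp 0.225 and 0 FPKM and Pglyrp1 1.65 and 0.506 FPKM. As in the comparison with serum, Crxos and Srarp passed the filter through 2i alone.

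Against Epi, 33.8% of all genes tested lay lower in both 2i cultures and 18.4% higher, and 0.29% were called lower and 0.374% higher. ERK targets were also lower in 2i than in Epi. Of the 19, 14 lay lower in both 2i cultures and 2 higher, and 3 were called lower: Dusp6, with 35.03 and 85.7 FPKM in Epi (log2 change -4.53, SE 0.50, adjusted p = 0.0315), Dusp4, with 9.76 and 12.99 FPKM (-3.33, SE 0.36, adjusted p = 0.0311), and Etv4, with 25.7 and 22.7 FPKM (-3.42, SE 0.32, adjusted p = 0.0294). Of the 15 genes of the Wnt list 6 lay higher in both 2i cultures, 3 lower and 6 overlapped, with a median log2 change of 0.13 over the 13 tested. Of the Wnt list 1 gene was called, Cdx1, which averaged 0.51 and 1.77 FPKM in Epi (log2 change 3.67, SE 0.50, adjusted p = 0.0446). T was at 2.2 and 153.8 FPKM and Sp5 at 0.729 and 42 FPKM in Epi, so the male Epi culture was above or among the 2i cultures. Of the primed list 14 of 16 lay lower in both 2i cultures and 1, Cldn6, was called. Otx2 was at 30.8 and 172.7 FPKM in Epi and Fgf5 at 14.1 and 144.9 FPKM, against 0.027 and 0.0195 FPKM in 2i. The largest differences lower in 2i, called or not, were in Cyp26a1, which degrades retinoic acid, at 0 and 0.0366 FPKM in 2i and 25.9 and 672 FPKM in Epi, then Car4, Otx2, Fgf8 and Fgf5. The called genes with the largest fall were Dusp6, Cldn6, Tspan7, Fgf15 and Gja1. Gja1, a gap junction gene, averaged 9.22 and 7.4 FPKM in 2i and 83.6 and 138.5 FPKM in Epi (log2 change -3.55, SE 0.31, adjusted p = 0.0236).

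In spread, 7 of 6803 genes (0.103%) were less variable in 2i than in Epi and 1 (0.0147%) more variable. Sat1, which acetylates polyamines, had a CV² of 0.137 and 0.178 in 2i and 10.3 and 4.69 in Epi (difference in excess -4.19, SE 0.53, adjusted p = 0.0115), with means of 78.6 and 90.7 FPKM in 2i and 73.2 and 43.7 FPKM in Epi. Dnmt3b was at 0.153 and 0.337 in 2i and 0.802 and 0.906 in Epi, and Btg2, an antiproliferative gene, at 0.572 and 0.381 in 2i and 3.65 and 3.02 in Epi. Of the naive list 1 gene, Nanog, could be tested here, because the others averaged under 5 FPKM in at least 1 Epi culture, and it was not called (0.0532 and 0.0681 in 2i, 1.55 and 2.09 in Epi). The number of less variable genes was 0 without either 2i culture, 72 without the female Epi culture, 1.75% of genes without the male Epi culture, 3 without either motor neuron culture and 2 in cells with at least 9000 genes.

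Against motor neuron cultures 614 genes were called higher in 2i (3.96%) and 4582 lower (29.6%), with a median log2 change of -0.66 over all genes. That split rests on the scale: with each culture at the same upper quartile the median was 0.02 and the calls were 1777 higher and 2351 lower, and with cells rescaled to the same sum -0.16, with 1045 and 2531. The shares called were 1.07% and 10.9% without the female 2i culture, 1.19% and 13.1% without the male one, and 2.66% and 23.2% without the male motor neuron culture. Of the naive list 16 of 16 lay higher in both 2i cultures and 7 were called higher, against 16.9% of all genes lying higher and 54.5% lower. The 5 largest rises were in Trpm1, at 8.94 and 0.196 FPKM in the motor neuron cultures, Fam25c, Tcl1, Nanog and Pou5f1. Fam25c averaged 1369 and 1049.8 FPKM in 2i and 19.6 and 2.37 FPKM in motor neuron. Tcl1, a coactivator of AKT, averaged 120.4 and 83.7 FPKM in 2i and 0.0133 and 0 FPKM in motor neuron. The largest falls were in Cartpt, a neuropeptide gene, at 0.26 and 0.302 FPKM in 2i and 2014 and 3068 FPKM in motor neuron (log2 change -10.92, SE 0.29, adjusted p = 1.46e-04), Spink1, Nnat, S100g and Gap43. Gap43, a growth cone gene, averaged 0.513 and 1.4 FPKM in 2i and 843 and 1559.6 FPKM in motor neuron.

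Markers of other cell types differed by list. The summed level of 10 trophoblast markers ran from 6.05 over a median of 35.2 to 75.6 FPKM in female and from 19.6 over 59.8 to 529.9 FPKM in male 2i cells, and from 0 over 20.4 to 243.3 FPKM and 0 over 27.7 to 190.5 FPKM in serum cells. At least 3 of the 10 were at 1 FPKM or more in 55 of 60 and 50 of 51 cells in 2i and in 30 of 68 and 22 of 52 cells in serum. In Epi this held for 52 of 79 female and 43 of 63 male cells. By culture means, 3 of the 10 lay higher in both 2i cultures than in both serum cultures, 1 lay lower and 6 overlapped. Of all genes tested, 26.2% lay higher and 27.1% lower. Cdx2, also on the Wnt list, and Tead4, with 9.33 and 10.8 FPKM in 2i and 2.83 and 3.5 FPKM in serum, lay higher in both 2i cultures, while Tfap2c lay lower, with 14.6 and 13.4 FPKM in 2i and 22.1 and 24.3 FPKM in serum. Elf5 was at 0.161 and 0.0349 FPKM and Hand1 at 0 and 0.167 FPKM in 2i. The summed level of 12 primitive endoderm markers ran from 0.916 over a median of 6.35 to 22.7 FPKM in female and from 0 over 16.2 to 116.8 FPKM in male 2i cells, and from 0 over 2.56 to 33.3 FPKM and 0 over 2.88 to 29.6 FPKM in serum cells. At least 3 of the 12 were found in 10 of 60 and 25 of 51 cells in 2i and in 8 of 68 and 6 of 52 in serum. By culture means, 4 of the 12 lay higher in both 2i cultures than in both serum cultures, 5 lay lower and 3 overlapped, against 26.2% higher and 27.1% lower of all genes tested. The part of these markers in the results was not tested. The summed level of 12 fibroblast markers had a median of 1.72 FPKM in female and 1.96 FPKM in male 2i cells, against 3.57 and 0.768 FPKM in serum, and at 1 FPKM or more 0 of the 12 were found in most cells of any ES culture. Serum cells with at least 3 of these 12 markers numbered 14 of 68 and 6 of 52, against 2 of 60 and 4 of 51 in 2i. The highest sums were 223.9 and 160.2 FPKM in serum cells and 10.7 and 39.8 FPKM in 2i cells. Single serum cells held up to 9 (female) and 8 (male) of the 12, and single 2i cells up to 4 and 3. The part of such serum cells in the levels and spread in serum was not tested. For 10 neural markers the summed median was 12.5 and 8.35 FPKM in 2i, mostly Tubb3, against 29.5 and 19.6 FPKM in serum. Markers of the 2-cell-like state (12 in the table) had a summed median of 0 in female and 0.875 FPKM in male 2i cells, and 2 male cells in 2i held 3 of them. The mesendoderm list (10 genes) summed to a median of 42.6 and 56.9 FPKM in 2i and to 0.767 and 0.642 FPKM in serum, and T and Cdx1, which are also on the Wnt list, were the 2 genes found in most 2i cells. Mixl1, at 0.637 and 0.569 FPKM, and Eomes, at 0.431 and 1.36 FPKM in 2i, stayed low, and Lhx1 was listed at 0 in both 2i cultures. Foxa2 was at 0.0235 and 0.276 FPKM.

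The lines in 2i had different levels of keratin and other genes that were chosen after their values were seen, apart from Krt7 and Sox17, which are on the trophoblast and primitive endoderm lists. There is 1 culture per line, so there is no test. Krt18, a keratin of simple epithelia, averaged 1.83 and 45.6 FPKM in 2i (female, then male) and 18.3 and 14.3 FPKM in serum. Krt7 averaged 1.14 and 23.8 FPKM in 2i and 0.689 and 2.02 FPKM in serum, and Krt8, the partner of Krt18, averaged 4.31 and 33.1 FPKM in 2i and 5.18 and 4.19 FPKM in serum. The difference was spread over the culture and not held by a few cells: Krt18 was at 1 FPKM or more in 51 of 51 male and 22 of 60 female cells, with a lowest male value of 8.18 FPKM. Both runs of the male culture showed it, with Krt18 at 46 and 45.4 FPKM in the lower and higher run. H19, an imprinted non-coding RNA gene, averaged 2.69 and 33.6 FPKM, and Lgals1, a galectin gene, 105.9 and 568 FPKM. Sox17 was at 1 FPKM or more in 6.67% of female (exact 95% interval 1.85 to 16.2%) and 47.1% of male cells (32.9 to 61.5%, both intervals for counting error only), with a mean of 5.93 FPKM in the male culture. Of the other primitive endoderm markers, Dab2 averaged 2.97 and 8.67 FPKM in 2i and 1.65 and 2.58 FPKM in serum and Lama1 averaged 3.2 and 3.55 FPKM in 2i and 0.268 and 0.688 FPKM in serum. The remaining 9, Gata6 and Gata4 among them, averaged under 0.5 FPKM in both 2i cultures. The Y-linked genes Eif2s3y and Ddx3y, which check the labels, were at 0.0203 and 0.0153 FPKM in female cells in 2i and at 19.4 and 15.9 FPKM in male cells. Among the 16 naive genes the lines in 2i lay closest, as a ratio of means, in Dppa3 at 79.4 and 79.6 FPKM and furthest apart in Klf2 at 62.5 and 41.6 FPKM.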

How the data were processed

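Libraries were made by SMART-seq2 and Tn5, per the labels' protocols. Deposited values are FPKM per gene and cell. Per the submitters' processing notes, the tools were STAR 2.4.1, Cufflinks and Cuffnorm 2.2.1 with mm10. No counts were used here, so the depth per cell is unknown and no interval rests on reads. Of 43628 gene identifiers, 42462 were matched to symbols in GENCODE M21 (GRCm38).

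Cells were averaged per culture (8 cultures, 4 states by 2 lines). Genes that averaged 1 FPKM or more over the cultures were fitted with limma 3.58.1 on log2(mean FPKM + 1), with a mean-dependent prior, and p-values were adjusted by Benjamini-Hochberg over all genes. Fold changes on this scale understate the change of low genes. Spread was log2 CV² within runs minus its running median over 200 genes of like mean. Both fits were tested on simulated data, where they did not recover the smaller of the changes put in and recovered part of the larger ones. A gene that was not called may therefore still differ. The same 2 lines pair the cultures: male minus female deviations correlated between states at 0.06 to 0.16 over 15504 genes, and the replicate block stands beside the counts it moved.

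The members and the 20 lists were chosen with earlier results of these data known. Genes named are list genes, the 5 largest changes in each direction and the largest called, and genes said to be chosen after their values were seen. Alternatives varied the pseudocount, filter, scaling, cell summary, runs, cultures and block. Promoter windows came from RefSeq (GRCm38.p6), and intervals are exact 95% binomial. Embryo cells were not analysed here.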

Additional observations from a re-analysis of the deposited data

Results flagged for a closer look

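In 6 of the genes described above or on the lists, the change from serum to 2i had opposite directions in the lines, by at least 0.5 on the log2 scale in each. They are examples and not a full count, as S100g also changed by -1.55 in the female and 3.38 in the male line. The share of all genes with such a change was not counted. There is 1 culture per line and state, so the difference between the lines was not tested. Krt18 was 2.77 lower in 2i in the female line (log2 change -2.77) and 1.61 higher in the male line, a difference of 4.38. For H19 the changes were -2.31 and 3.54 (difference 5.84), and for the galectin gene Lgals1 -1.62 and 1.37 (difference 2.99). These 3 genes were chosen after their values were seen. On the trophoblast list, Ascl2 changed by -1.39 in the female and 1.82 in the male line (difference 3.21), and Esx1 by -1.37 and 1.28 (difference 2.65). Ddit3, of the amino acid response list, changed by -1.01 and 0.50 (difference 1.51). In Krt18, H19 and Lgals1 the male 2i culture held the highest mean of the 4 ES cultures.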

How the results depend on the processing

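Shares are the percent of tested genes that were called, higher (or more variable) in 2i and then lower (or less variable). Against serum (0.0129 and 0.00645) they were 0 and 0 with a pseudocount of 0.1, 0.065 and 0.0148 with no filter, 0.0201 and 0.0201 at 5 FPKM, 1.37 and 0.0709 from means of log2 values, 0.0131 and 0.0131 with cells rescaled, 0.0519 and 0.026 with upper-quartile scaling, 0.0196 and 0.00653 and 0.0454 and 0.026 in the lower and higher runs, and 1.87 and 1.15 in the ES cultures alone. Against Epi (0.374 and 0.29) they were 0.116 and 0.329, 0.103 and 0.0532, 0.311 and 0.411, 1.65 and 0.368, 0.426 and 0.557 and 0.617 and 0.403 in the same order up to scaling, and 0.202 and 0.0848 and 0.0974 and 0.0389 in the lower and higher runs. With the female Epi culture of 7 passages, which comes from a table that may have been normalized separately, they were 0.524 and 0.214 against serum and 4.84 and 6.12 against Epi. Against motor neuron (3.96 and 29.6) they were 9.08 and 14.8 from means of log2 values, 6.84 and 16.6 with cells rescaled and 11.5 and 15.3 with upper-quartile scaling. Among the genes called, the part that was higher moved from 56.3% to 43.3% (cells rescaled), 26.1% (pseudocount of 0.1), 27.5% (without the male Epi culture) and 81.8% (means of log2) against Epi, and from 11.8% to 29.2%, 38.1% and, with upper-quartile scaling, 43.05% against motor neuron.

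With the line as a replicate block the shares were 0 and 0 against serum, where 1727 genes had an unadjusted p under 0.05, 0.271 and 0.277 against Epi, 4.16 and 30.5 against motor neuron, and in spread 0 and 0.0639 against serum and 0.016 and 0.144 against Epi. Leaving out 1 culture at a time gave 0 to 0.239 and 0 to 0.0903 against serum, 0 to 2.4 and 0 to 2.56 against Epi and 1.07 to 5.39 and 10.9 to 31.2 against motor neuron, and in spread 0 to 0.214 and 0 to 0.857 against serum and 0 to 0.246 and 0 to 1.75 against Epi. Spread against serum (0.0429 and 0.257) was 0 and 0 with runs not kept apart, 0.0429 and 0.0571 from the SD of log2 values and 0.1 and 0.414 in the ES cultures alone. Spread against Epi (0.0147 and 0.103) was 0 and 0.0588 with runs not kept apart, 0 and 0.0793 at 10 FPKM, 0.0294 and 0.0588 from the SD of log2 values and 0 and 0.0296 in cells with at least 9000 genes. The excess spread of Gm22701 against Epi reversed to -0.23 with runs not kept apart and -0.37 from the SD of log2 values. The cause of these changes was not tested. Of the levels of single genes under an alternative, 83.3% kept direction and side of the threshold, 8.87% lost a call, 7.85% gained one and 0 reversed. Of the spread of single genes 42.3% kept both, 57.1% lost a call and 2 values reversed. The level shares include genes that the main fit did not call, which cannot lose a call. The spread shares cover only called genes, so the 2 sets of shares cannot be compared. Against serum, the level calls of Crxos, Srarp and Cldn6 were kept in 12, 10 and 10 of 19 alternatives. Depth per cell is unknown and a state has 2 cultures.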

Other observations

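Further lists were compared between ES cells in 2i and Epi cultures. Of 13 amino acid response genes, 11 lay lower in both 2i cultures than in both Epi cultures and 1 higher, against 33.8% lower and 18.4% higher of all genes tested, with a median log2 change of -1.18 and 0 called. Asns, higher in 2i than in serum, averaged 1013 and 1049 FPKM in 2i and 320.8 and 654 FPKM in Epi. Against the same shares, of 10 mesendoderm genes 6 lay lower and 1, Cdx1, higher, with a median of -2.76. Of 15 S phase genes 9 lay higher and 0 lower (18.4% and 33.8% of all genes), with a median of 0.17, against -0.13 over all genes.

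Cells in 2i also differed from motor neuron cultures in endoderm genes. Of 12 primitive endoderm markers 10 were tested and 10 were called lower in 2i, against 29.6% of all genes (15.3% with upper-quartile scaling), and Sox17 averaged 0.271 and 5.93 FPKM in 2i and 89.5 and 345.9 FPKM in motor neuron. Of 10 neural markers 8 were tested and 6 were called lower, against the same shares. Most of these endoderm markers and several of the neural ones averaged under 1 FPKM in both 2i cultures. Those passed the filter only through other cultures, which favours lower values in 2i, so no conclusion is drawn from these counts.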
